A study of Rattus norvegicus with 30 samples.

Results

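Cytosolic ribosomal proteins were followed in primary rat hepatocytes exposed to diisononyl phthalate (DINP), a plasticiser. The set held every probe set whose platform annotation gave 1 gene symbol of the form Rpl or Rps plus digits, with an optional letter or l ending, or Rplp0, Rplp1, Rplp2 or Rpsa. The S6 kinases Rps6ka and Rps6kb were left out. This gave 50 of the 31099 probe sets on the array, for 44 genes: 32 probe sets of the large subunit, 17 of the small subunit and 1 of the P-stalk, Rplp0. The rule used no measured value, although it was chosen with earlier results of these data known. A further 36 ribosomal protein probe sets with several symbols, Rplp1 among them, were kept apart.

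The cultures were frozen hepatocytes of male Sprague Dawley rats from a commercial supplier, thawed, plated on collagen under Matrigel and dosed on day 3. The agents were DINP at 25 or 100 mM, the unit being kept as the labels write it, or the vehicle, 1% DMSO, and RNA was taken after 24 or 48 h. Each of the 6 groups had 5 arrays, from wells that the labels call independent cultures. The sources used here do not name the donor animals, and p-values therefore measure the spread between wells. All values are log2(signal + 16) of MAS5 intensities that had been scaled to one mean per array before deposit. Differences are DINP minus vehicle on that scale, given with limma's standard error, 5 arrays against 5. A probe set was called when its limma p-value, adjusted by Benjamini-Hochberg over all 18625 tested probe sets, was below 0.05. At each time both doses were compared with the same 5 vehicle arrays, so their results are given side by side and are not independent.

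A cytosolic ribosome is built from ribosomal RNA and one copy of most ribosomal proteins. The large subunit forms the peptide bond, the small subunit reads the mRNA, and the P-stalk recruits the elongation factors. Ribosomal protein mRNAs are among the most abundant transcripts of a hepatocyte. They begin with a C and a run of pyrimidines, the terminal oligopyrimidine or TOP motif, through which mTORC1 and the RNA-binding protein LARP1 set how much of the mRNA is translated, so that an mRNA level alone does not give the rate of ribosomal protein synthesis.

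Start-site sequences of 6 members are shown because the set shares this feature, which the choice did not use. They came from the RefSeq promoter table of rat build GRCr8, which held 39 of the 44 genes. Each window covers 15 bases before the annotated start and 15 from it on, 5′ to 3′ on the strand of the gene. Capitals mark the pyrimidine run searched for: at least 6 consecutive bases, each C or T, on the gene's own strand, that covered the first transcribed base or began within 10 bases of it on either side. Where several runs met this rule the longest is in capitals, so that in the Rpl23 window the marked run ends just before the first transcribed base and a shorter one after it is in lower case. Rps13 and Rps24 gave the largest rise and the largest fall over the dose comparisons, Rplp0 is the P-stalk member, and Rps3 lay, with Rps13, at the median rank of the mean difference. Rpl23 and Rps15 were added after their values were seen.
Rplp0 (chr12:46718376-46718405, minus strand): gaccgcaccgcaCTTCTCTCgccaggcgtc
Rps24 (chr16:96502-96531, plus strand): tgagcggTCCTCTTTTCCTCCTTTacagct
Rps13 (chr1:180009646-180009675, minus strand): gccgtttcctacctcgTTCTCTCTTTgctt
Rps15 (chr7:10068101-10068130, minus strand): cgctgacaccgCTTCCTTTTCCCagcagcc
Rpl23 (chr10:83272170-83272199, minus strand): actaaCTTCCTTTCTgactctttccggacg
Rps3 (chr1:163195762-163195791, minus strand): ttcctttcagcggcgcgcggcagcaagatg
The run was 8 bases long for Rplp0, 17 for Rps24, 10 for Rps13, 12 for Rps15 and 10 for Rpl23. In the Rps3 window no run met the rule. It was found for 25 of the 39 members, 64.1%, against 24.3% of the 27418 other genes in the table. A match describes the letters near an annotated start and is not evidence of regulation.

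Of the 50 probe sets, 48 passed the filter on dim signal and were tested, covering 42 genes. The others, the Rpl28 probe set and that of Rpl3l, a paralog of Rpl3 known from striated muscle, were dim on all 30 arrays, between 5.26 and 7.93 for Rpl28 and between 5.44 and 8.01 for Rpl3l, and gave no comparison; a bright probe set with Rpl28 among several symbols was outside the set. For 39 of the 48 probe sets, from 38 genes, the mean over all arrays was 15 or more, above the 98th percentile of the array. The other 9 were dimmer, from 8.1 for a Rps13 probe set to 14.0 for a Rpsa probe set. Within groups, the bright members varied little, with a median SD of 0.078 against 0.219 over all tested probe sets, which they shared with the other bright probe sets (0.088). After each array's mean over these members was taken out, the median SD was 0.04, so much of the spread was shared by the whole set on an array.

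Genes known to respond to such plasticisers rose. Ehhadh, a peroxisomal beta-oxidation enzyme, rose by 2.65 ± 0.10 to 3.05 ± 0.10 over the 4 dose comparisons (limma adjusted p at most 6.64e-19), and Cyp4a1, a fatty acid hydroxylase, by 2.38 ± 0.11 to 2.59 ± 0.11 (limma adjusted p at most 4.17e-17). No 2 arrays held identical values. The 7 hepatocyte markers on the array were all tested, and their summed signal lay between 19.27 and 19.67 (log2) on every array, although 2 of their 9 probe sets were called lower at 100 mM and 48 h, the lowest by -1.12 (3 under quantile normalisation). The 4 lymphocyte markers on the array were all under the filter. The summed signal of the stellate cell or fibroblast markers, 6 of 9 of which passed the filter, lay between 12.98 and 13.36 under DINP and between 13.82 and 13.93 in the vehicle at 24 h, and between 13.24 and 13.58 and between 13.74 and 14.42 at 48 h, without overlap. Few of these markers carried this: 1 of 6 probe sets was called lower in each of the first 3 dose comparisons and 2 at 100 mM and 48 h, and the medians ran from -0.13 to -0.281. The summed cholangiocyte markers lay between 13.10 and 13.52 at 25 mM and between 13.53 and 13.80 in the vehicle at 48 h, with 1 of 2 probe sets called lower, and overlapped the vehicle in the other dose comparisons. In RNA from a whole culture, fewer cells of a type and less RNA per cell cannot be told apart. The part of these cells in the ribosomal protein values was not tested.

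The ribosomal protein mRNAs as a set lay near their vehicle level. Averaged over the 48 probe sets, the level on the vehicle arrays at 24 h ran from 14.97 to 15.13, at 25 mM from 15.05 to 15.19 and at 100 mM from 15.07 to 15.22. At 48 h it ran from 14.98 to 15.09 in the vehicle, from 15.04 to 15.16 at 25 mM and from 15.07 to 15.27 at 100 mM. The groups overlapped at both times, with the treated arrays toward the upper end. The median member difference was 0.078 at 25 mM and 0.082 at 100 mM after 24 h, and 0.054 and 0.097 after 48 h, while the median over all tested probe sets was -0.046, -0.053, -0.034 and -0.074. Under the deposited scaling, though not under quantile normalisation, all 39 bright members lay above 0 at 24 h at both doses and at 100 mM and 48 h, and 34 of them at 25 mM and 48 h. At 24 h, 7811 of all 18625 tested probe sets lay above 0 at 25 mM and 7621 at 100 mM. Of 424 other probe sets with a mean of 15 or more, 308 and 313 did. Even the widest of the bright members' 95% confidence intervals stayed within 0.897 and 1.37 times the vehicle level over the 4 dose comparisons.

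**Figure D1:**
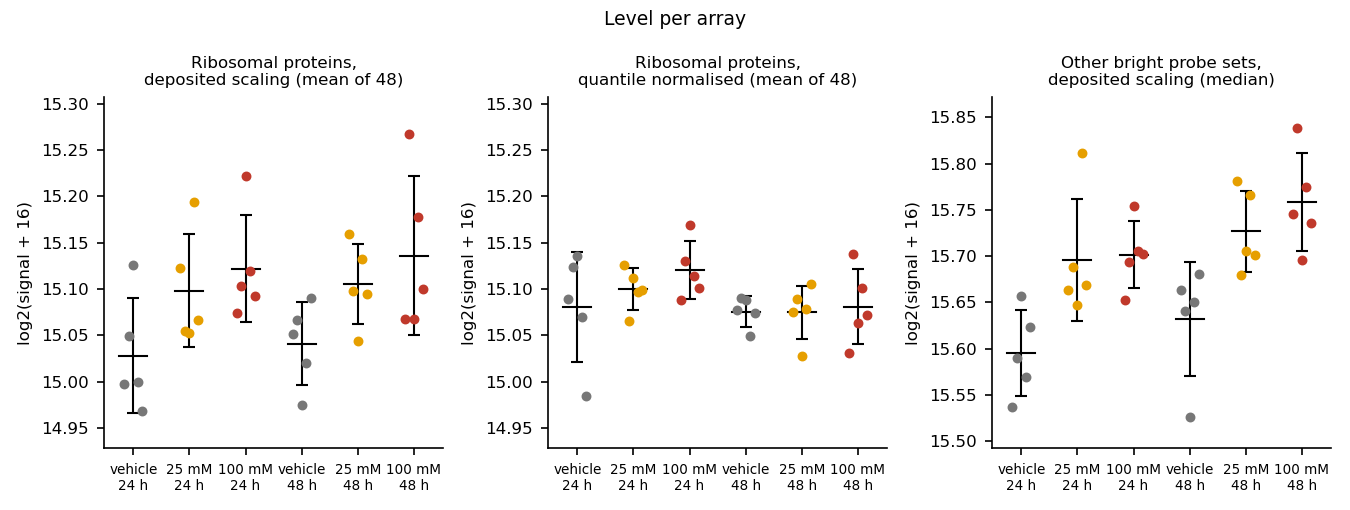
Level per array, log2(signal + 16), in each of the 6 groups, as the mean of the 48 tested ribosomal protein probe sets under the deposited scaling (left) and after quantile normalisation (middle), and as the median of 424 other bright probe sets (right). Points are the 5 arrays, lines and bars the mean and SD; the treated arrays sit toward the top in the left and right panels, and the group means lie between 15.08 and 15.12 in the middle one.

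This offset was shared with other bright probe sets. The 424 probe sets outside the set with a mean of 15 or more had a median difference of 0.073 at 25 mM and 0.083 at 100 mM after 24 h, and of 0.074 and 0.115 after 48 h. The 36 ribosomal protein probe sets with several symbols had medians of 0.073, 0.092, 0.068 and 0.108 in the same order. Over the whole array the differences went up with brightness at 100 mM and 48 h, where the median was -0.122 for probe sets with a mean of 8 to 9 and 0.116 for those of 15 to 16. At 25 mM and 48 h these medians were -0.003 and 0.086. Under quantile normalisation, which gives every array the same distribution, the member medians were 0.009 and 0.017 at 24 h and -0.029 and -0.004 at 48 h, so the set lay near 0, and the mean over the members at 48 h was 15.076 in the vehicle, 15.075 at 25 mM and 15.081 at 100 mM. Scaling each array on the 424 bright probe sets, an alternative chosen after seeing the data, gave member medians of -0.022 and -0.024 at 24 h and -0.041 and -0.029 at 48 h. Any direction given here for a bright member therefore holds for the deposited scaling.

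**Figure D2:**
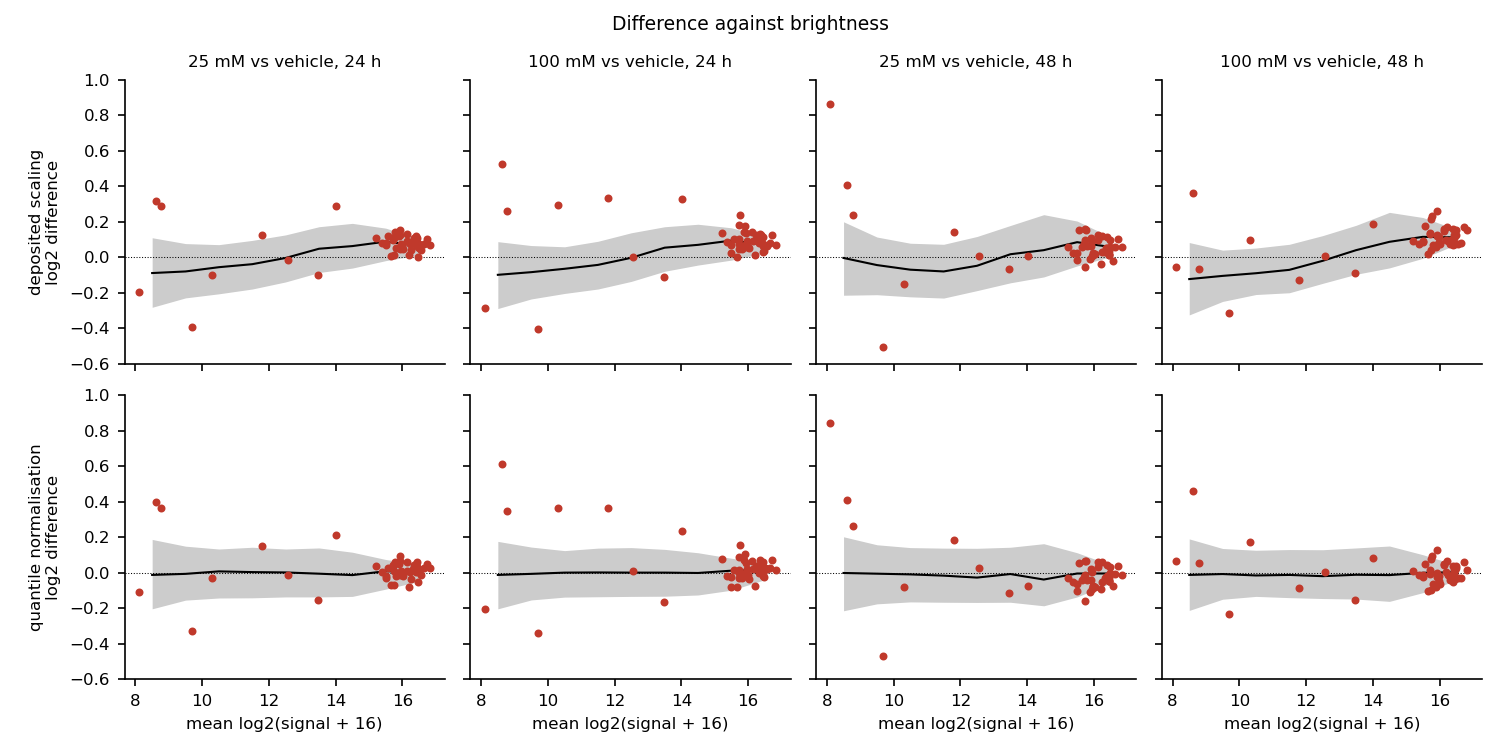
Log2 difference of DINP minus vehicle against the mean log2(signal + 16) of the probe set, in the 4 dose comparisons, under the deposited scaling (top) and quantile normalisation (bottom). Red points are the 48 ribosomal protein probe sets, the black line is the median and the grey band spans the lower to the upper quartile of all tested probe sets in bins 1 unit wide; under the deposited scaling the line is above 0 for the brightest bins, where most red points lie, and under quantile normalisation it runs close to 0.

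Most members were called in no dose comparison. At 25 mM and 24 h, 2 of 48 probe sets (4.17%) were called higher and 1 (2.08%) lower, where 5.85% and 7.49% of all tested probe sets were. After 24 h of 100 mM, 3 (6.25%) were higher and 1 (2.08%) lower, against 5.55% and 6.74%. At 25 mM and 48 h, 4 (8.33%) were higher and 1 (2.08%) lower, against 7.41% and 10.5%. For 100 mM and 48 h, 9 (18.8%) were higher and 0 lower, against 6.49% and 8.07%. At an unadjusted limma p under 0.05 the numbers were 21 and 1. The percentages of all tested probe sets are for adjusted p and cannot be set against these 2 numbers. The share of members called lower was below that of the array in all 4 comparisons. Under quantile normalisation this did not hold at 25 mM and 48 h (12.5% against 9.41%). The share of members called higher was above that of the array at 100 mM and 48 h and near it in the other comparisons. At 100 mM and 48 h it was 0 under quantile normalisation. The size of the excess there varied with single arrays. Without treated replicate 2 or vehicle replicate 3, 3 members (6.25%) were called higher, beside 1085 or 1082 of the 18625 probe sets. Without any other array, 6 to 13 were. The 6 came without vehicle or treated replicate 4 (beside 1121 or 1047) and the 13 without treated replicate 3 (beside 1130). The array's share is not that of probe sets as bright as most members. Of 424 others with a mean of 15 or more, 95 were called higher and 37 lower at 25 mM and 24 h. At 100 mM and 24 h these were 102 and 26. Of the 39 bright members, 1 and 2 were called higher and 0 lower in these comparisons. For 48 h such counts are not given here, so the 9 calls at 100 mM are not set against probe sets of like brightness. With arrays scaled on the 424, chosen after seeing the data, 1 member was called higher and 1 lower at 100 mM and 48 h. Over the 18625 probe sets, 674 and 3872 were. In all, 13 probe sets of 12 genes were called in at least 1 dose comparison, and 35 in none. Of the 21 calls, 3 were also made under quantile normalisation: Rpl18 at 100 mM and 24 h, and Rps13 and the dim Rps24 probe set at 25 mM and 48 h.

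Under quantile normalisation, 0 members were called higher and 0 lower at 25 mM and 24 h (4 and 2 at an unadjusted limma p under 0.05), where 6.3% and 6.61% of all tested probe sets were. With 100 mM for 24 h, 2 were higher and 0 lower (5 and 2 unadjusted), against 5.87% and 5.64%. The one beside Rpl18 was Rpl30, whose dim probe set gave 0.61 (limma adjusted p = 0.0227) after that scaling and 0.53 ± 0.19 (limma adjusted p = 0.0605) before it. A bright probe set with Rpl30 among several symbols gave 0.12 ± 0.07 there (limma adjusted p = 0.349). At 25 mM and 48 h, 1 was higher and 6 lower, against 8.13% and 9.41%. The lower ones beside Rps24 were the large-subunit members Rpl3, Rpl5, Rpl6, Rpl22 and Rpl23a, at -0.08 to -0.16 (limma adjusted p from 0.0157 to 0.0303), none of which was called before that scaling. In the last comparison, 100 mM for 48 h, limma called 0 in either direction (3 higher and 1 lower unadjusted), against 6.78% higher and 6.34% lower. The percentages in this paragraph are for adjusted p and cannot be set against the unadjusted counts.

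**Figure D3:**
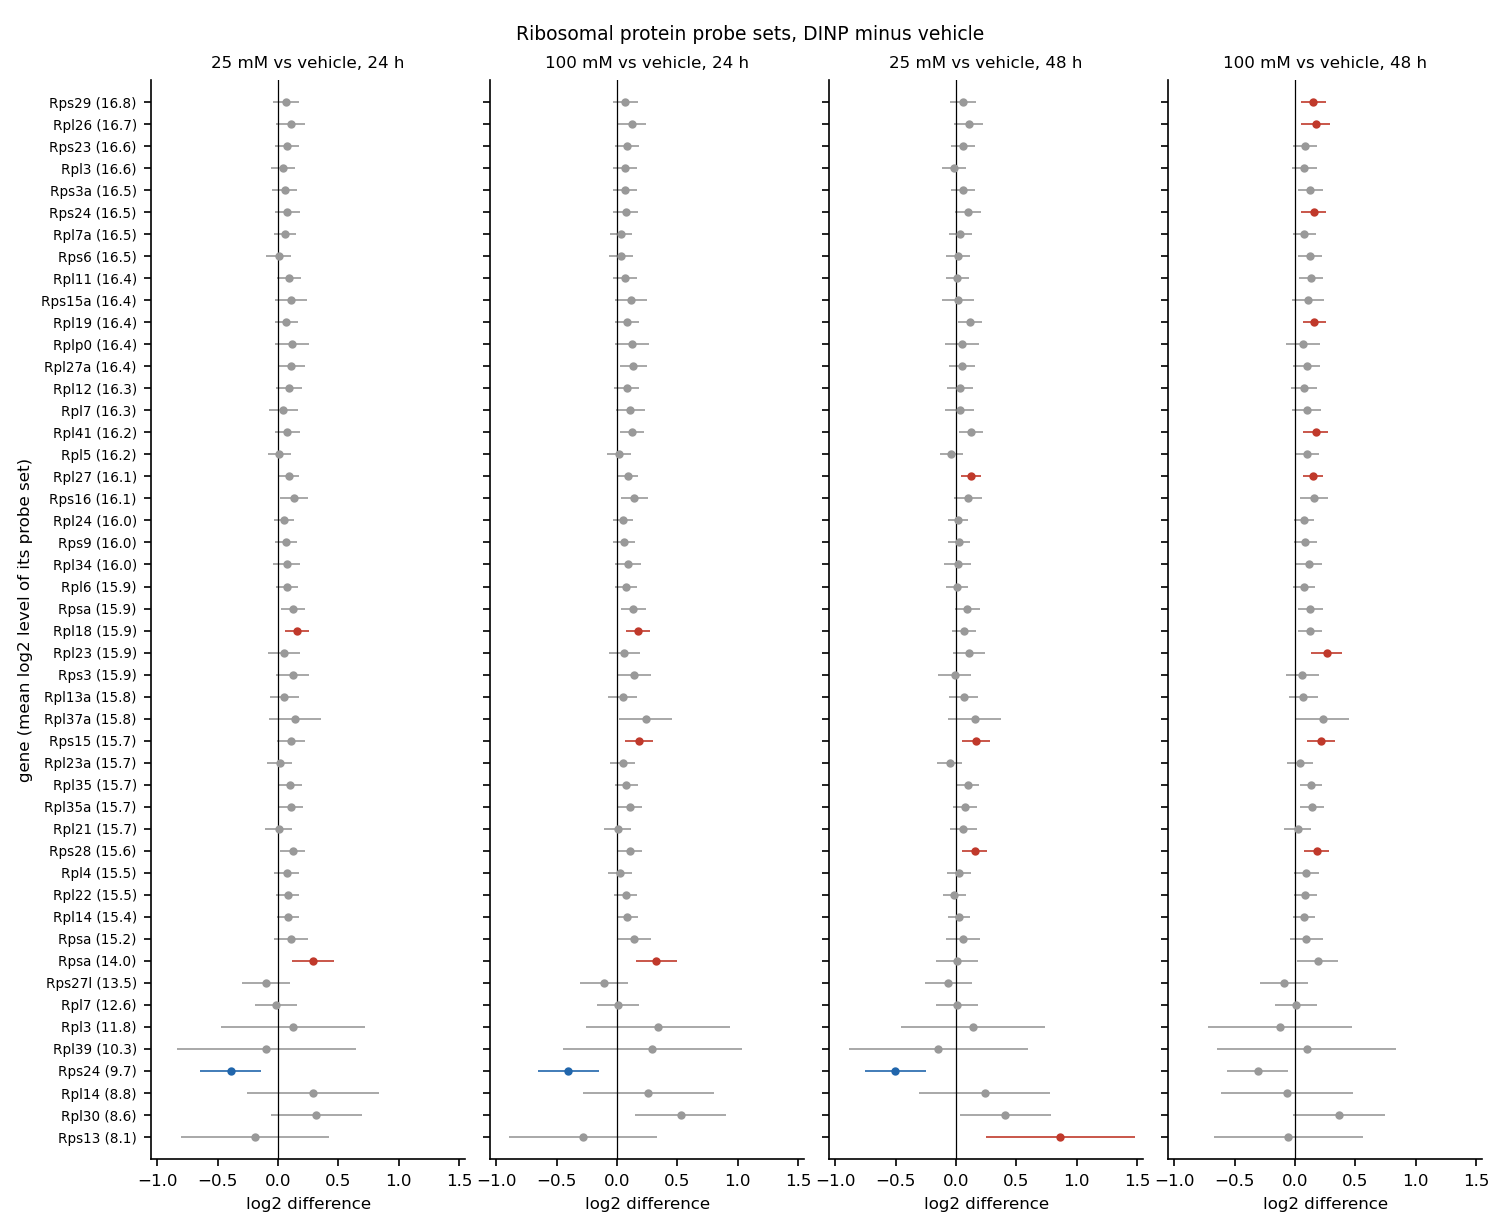
Log2 difference of DINP minus vehicle with its 95% confidence interval for each of the 48 tested probe sets in the 4 dose comparisons, ordered by the mean level given beside the gene. Red points were called higher and blue points lower under the deposited scaling; the bright members form a narrow column just right of 0 and the called exceptions with large differences, Rps13 and Rps24, are among the dimmest.

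In the large subunit, 1 probe set was called at each dose at 24 h, 1 at 25 mM and 48 h, and 5 of 30 at 100 mM and 48 h. Rpl23, a protein on the face of the large subunit that meets the small one, gave the largest of these among bright members. At 48 h its vehicle arrays read 15.60, 15.79, 15.73, 15.87 and 15.95, those at 25 mM 15.90, 15.92, 15.79, 16.02 and 15.85, and those at 100 mM 15.99, 16.24, 15.98, 16.01 and 16.03. All 5 arrays at 100 mM lay above all vehicle arrays, and those at 25 mM overlapped them. The difference at 100 mM was 0.26 ± 0.06, a 1.20-fold level (limma adjusted p = 0.00381). It stayed called without any single array (limma adjusted p at most 0.0212) and when arrays were scaled on the members, an alternative chosen after seeing the data (0.155, limma adjusted p = 0.0196), but not under quantile normalisation (0.13, limma adjusted p = 0.0877).

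At 24 h the lowest Rpl23 reading was 15.77 in the vehicle, 15.83 at 25 mM and 15.85 at 100 mM, and the difference at 100 mM was 0.061 ± 0.064 (limma adjusted p = 0.62). These groups overlapped. The effect of 100 mM on Rpl23 was 0.20 ± 0.09 larger at 48 than at 24 h, which was the smallest unadjusted p among members for that comparison (limma unadjusted p = 0.033) and did not pass adjustment.

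Rpl18 was called at 24 h. Its vehicle arrays read 15.70, 15.79, 15.88, 15.71 and 15.72, those at 25 mM 15.85, 15.89, 15.92, 16.06 and 15.85, and those at 100 mM 15.87, 15.96, 16.06, 15.90 and 15.90. A single vehicle array, replicate 3, reached into the treated range. The differences were 0.16 ± 0.05 at 25 mM (limma adjusted p = 0.0279) and 0.18 ± 0.05 at 100 mM (limma adjusted p = 0.0124). At 100 mM the call was lost only without treated replicate 3 (limma adjusted p = 0.0578) and was kept under quantile normalisation (0.11, limma adjusted p = 0.0389). At 25 mM it was lost without vehicle replicate 1, 4 or 5 or treated replicate 3 or 4 (limma adjusted p up to 0.118), and it was not made under quantile normalisation (0.096, limma adjusted p = 0.0652).

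Rpl27 was called at both doses at 48 h. It read 15.95 to 16.13 in the vehicle, 16.12 to 16.24 at 25 mM and 16.15 to 16.29 at 100 mM. The vehicle and 100 mM arrays did not overlap, and those at 25 mM met the vehicle's highest array. The differences were 0.13 ± 0.04 (limma adjusted p = 0.0331) and 0.15 ± 0.04 (limma adjusted p = 0.0122). The call at 100 mM was lost without vehicle replicate 3 (limma adjusted p = 0.0529), and that at 25 mM without vehicle replicate 3 or 4 or treated replicate 1, 4 or 5 (limma adjusted p up to 0.119). Under quantile normalisation Rpl27 was at 0.058 and 0.049 and neither call was made.

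The other large-subunit calls were at 100 mM and 48 h. Rpl41, the smallest ribosomal protein, read 16.09 to 16.29 in the vehicle and 16.25 to 16.52 at 100 mM, a difference of 0.17 ± 0.05 (limma adjusted p = 0.0168). Rpl26 read 16.57 to 16.81 and 16.72 to 17.06, a difference of 0.17 ± 0.06 (limma adjusted p = 0.0427). Rpl19 read 16.27 to 16.42 and 16.37 to 16.66, a difference of 0.16 ± 0.05 (limma adjusted p = 0.02). In each of these the groups overlapped by at least 1 array. The calls were lost without vehicle replicate 3 or treated replicate 2 for Rpl41 (limma adjusted p up to 0.077), without these or vehicle replicate 4 for Rpl19 (up to 0.0928), and without vehicle replicate 1, 2 or 3 or treated replicate 1, 2 or 4 for Rpl26 (up to 0.175). Under quantile normalisation the differences were 0.066 for Rpl41, 0.06 for Rpl26 and 0.039 for Rpl19, and none was called.

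In the small subunit, Rps15 was called in 3 of the 4 dose comparisons. This protein is needed for export of the pre-small subunit from the nucleus. At 24 h its vehicle arrays read 15.58, 15.56, 15.77, 15.52 and 15.56, those at 25 mM 15.67, 15.67, 15.70, 15.85 and 15.64, and those at 100 mM 15.59, 15.76, 15.92, 15.81 and 15.82. At 48 h the vehicle read 15.71, 15.66, 15.58, 15.60 and 15.74, 25 mM 15.86, 15.78, 15.82, 15.90 and 15.76, and 100 mM 15.91, 15.93, 15.78, 15.99 and 15.75. At 48 h every treated array lay above every vehicle array, narrowly, and at 24 h vehicle replicate 3 and the lowest treated arrays overlapped.

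The Rps15 difference was 0.19 ± 0.06 at 100 mM and 24 h (limma adjusted p = 0.0277), 0.16 ± 0.06 at 25 mM and 48 h (limma adjusted p = 0.0426) and 0.21 ± 0.06 at 100 mM and 48 h (limma adjusted p = 0.00821). The last stayed called without any single array (limma adjusted p at most 0.0377). The first was lost without any 1 of vehicle replicates 1, 2, 4 and 5 and treated replicates 3, 4 and 5 (limma adjusted p up to 0.108), and the second without any 1 of vehicle replicates 2, 3 and 4 and treated replicates 1, 3 and 4 (up to 0.109). Under quantile normalisation the differences were 0.09, 0.06 and 0.07 and none was called.

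Rps28, a protein at the mRNA exit of the small subunit, was called at both doses at 48 h. Its vehicle arrays read 15.51, 15.48, 15.40, 15.43 and 15.53, those at 25 mM 15.69, 15.59, 15.57, 15.67 and 15.59, and those at 100 mM 15.61, 15.81, 15.57, 15.65 and 15.59. All treated arrays lay above all vehicle arrays. The differences were 0.15 ± 0.05 (limma adjusted p = 0.0293) and 0.18 ± 0.05 (limma adjusted p = 0.0136). The call at 100 mM was lost without treated replicate 2 (limma adjusted p = 0.0655), and that at 25 mM without vehicle replicate 3 or 4 or treated replicate 1 or 4 (up to 0.0804). Under quantile normalisation Rps28 was at 0.057 and 0.049 and neither call was made.

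Rps29, a zinc-binding protein of the small subunit's head, read 16.70 to 16.93 in the vehicle at 48 h and 16.89 to 17.06 at 100 mM, a difference of 0.15 ± 0.05 (limma adjusted p = 0.046). The groups overlapped, and the call was lost without any 1 of vehicle replicates 1 to 4 and treated replicates 2, 4 and 5 (limma adjusted p up to 0.139). It was not made under quantile normalisation, where Rps29 was at 0.015.

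Rpsa, the ribosomal protein SA also known as a laminin receptor, had 3 probe sets, and the dimmest was called at 24 h. Its vehicle arrays read 13.72, 13.93, 13.61, 13.53 and 13.83, those at 25 mM 13.85, 13.96, 14.03, 14.16 and 14.06, and those at 100 mM 13.96, 14.00, 14.17, 14.11 and 14.02. All arrays at 100 mM lay above the vehicle, while at 25 mM the lowest lay below the vehicle's highest. The differences were 0.29 ± 0.09 at 25 mM (limma adjusted p = 0.0188) and 0.33 ± 0.09 at 100 mM (limma adjusted p = 0.00846). The call at 100 mM stayed without any single array (limma adjusted p at most 0.0412), and that at 25 mM was lost without vehicle replicate 3 or 4 or treated replicate 4 (up to 0.0787). Under quantile normalisation neither was made (0.211 and 0.237, limma adjusted p = 0.0943 and 0.0589). The other Rpsa probe sets gave 0.11 and 0.13 at 25 mM and 0.14 and 0.14 at 100 mM, not called. The name of the dimmest set marks it as one whose probes can bind other transcripts, so its value is less certain.

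Rps24, a small-subunit protein known for alternative splicing at its 3′ end, was the member with probe sets called in opposite directions, though not in the same comparison. At 48 h the dim one read 9.85, 10.11, 10.13, 9.79 and 9.76 in the vehicle, 9.37, 9.49, 9.28, 9.50 and 9.49 at 25 mM, and 9.60, 9.64, 9.52, 9.44 and 9.89 at 100 mM. All arrays at 25 mM lay below all vehicle arrays, and at 100 mM 1 array reached the vehicle range. The difference at 25 mM was -0.50 ± 0.12, a 0.705-fold level (limma adjusted p = 0.00363), and stayed called without any single array (limma adjusted p at most 0.0157) and under quantile normalisation (-0.47, limma adjusted p = 0.0101). At 100 mM and 48 h it was -0.31 ± 0.12 (limma adjusted p = 0.0924).

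At 24 h the dim Rps24 probe set read 10.15, 10.09, 10.04, 10.04 and 9.68 in the vehicle, 9.30, 9.50, 9.65, 9.59 and 9.99 at 25 mM, and 9.28, 9.80, 9.63, 9.68 and 9.59 at 100 mM. Vehicle replicate 5 lay in the treated range. The set fell by 0.39 ± 0.12 at 25 mM (limma adjusted p = 0.0313) and by 0.40 ± 0.12 at 100 mM (limma adjusted p = 0.0278). Each of these calls was lost without some single arrays: vehicle replicates 1, 2, 3 or 4 or treated replicates 1, 2 or 4 at 25 mM (limma adjusted p up to 0.105), and vehicle replicates 1, 2, 3 or 4 or treated replicates 1 or 5 at 100 mM (up to 0.0963). Neither was made under quantile normalisation (-0.327 and -0.34, limma adjusted p = 0.104 and 0.094). With arrays scaled on the members, chosen after seeing the data, the dim set was called lower in all 4 dose comparisons, at -0.418 to -0.537 (limma adjusted p from 0.00536 to 0.0296). The member median lay above 0 in all 4, so this scaling moves every difference down by construction. How many of all tested probe sets it called lower is not given here, so these calls do not add to those above.

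The bright Rps24 probe set had the opposite sign. At 48 h it read 16.43, 16.40, 16.33, 16.40 and 16.41 in the vehicle and 16.55, 16.69, 16.47, 16.56 and 16.47 at 100 mM, with no overlap. The difference was 0.15 ± 0.05 (limma adjusted p = 0.0391), lost without any 1 of vehicle replicates 2 to 5 and treated replicates 1, 2 and 4 (limma adjusted p up to 0.139) and under quantile normalisation (0.037). At 25 mM and 48 h, where the dim set fell, the bright one was at 0.10 ± 0.05 (limma adjusted p = 0.214). Which transcripts each set detects was not tested here.

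Rps13 had a single probe set among the members, at the lower limit of what was tested. Its arrays at 48 h read 6.31, 8.16, 7.94, 7.62 and 7.84 in the vehicle, 8.68, 8.43, 8.24, 8.59 and 8.25 at 25 mM, and 6.94, 8.18, 8.06, 7.68 and 6.73 at 100 mM. The arrays at 25 mM lay above the vehicle, and those at 100 mM did not. The difference at 25 mM was 0.87 ± 0.30 (limma adjusted p = 0.0431), and at 100 mM it was -0.06 ± 0.30. The vehicle mean was below 7.956, the dimmest overall mean tested. A bright probe set with Rps13 among several symbols, outside the set and with a mean of 16.005, gave 0.047 ± 0.043 at 25 mM (limma adjusted p = 0.525). The call was lost without vehicle replicate 1 or 4 or any 1 treated array (limma adjusted p up to 0.178), and the lowest value without 1 array was 0.549. It was kept under quantile normalisation (0.841, limma adjusted p = 0.0431).

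**Figure D4:**
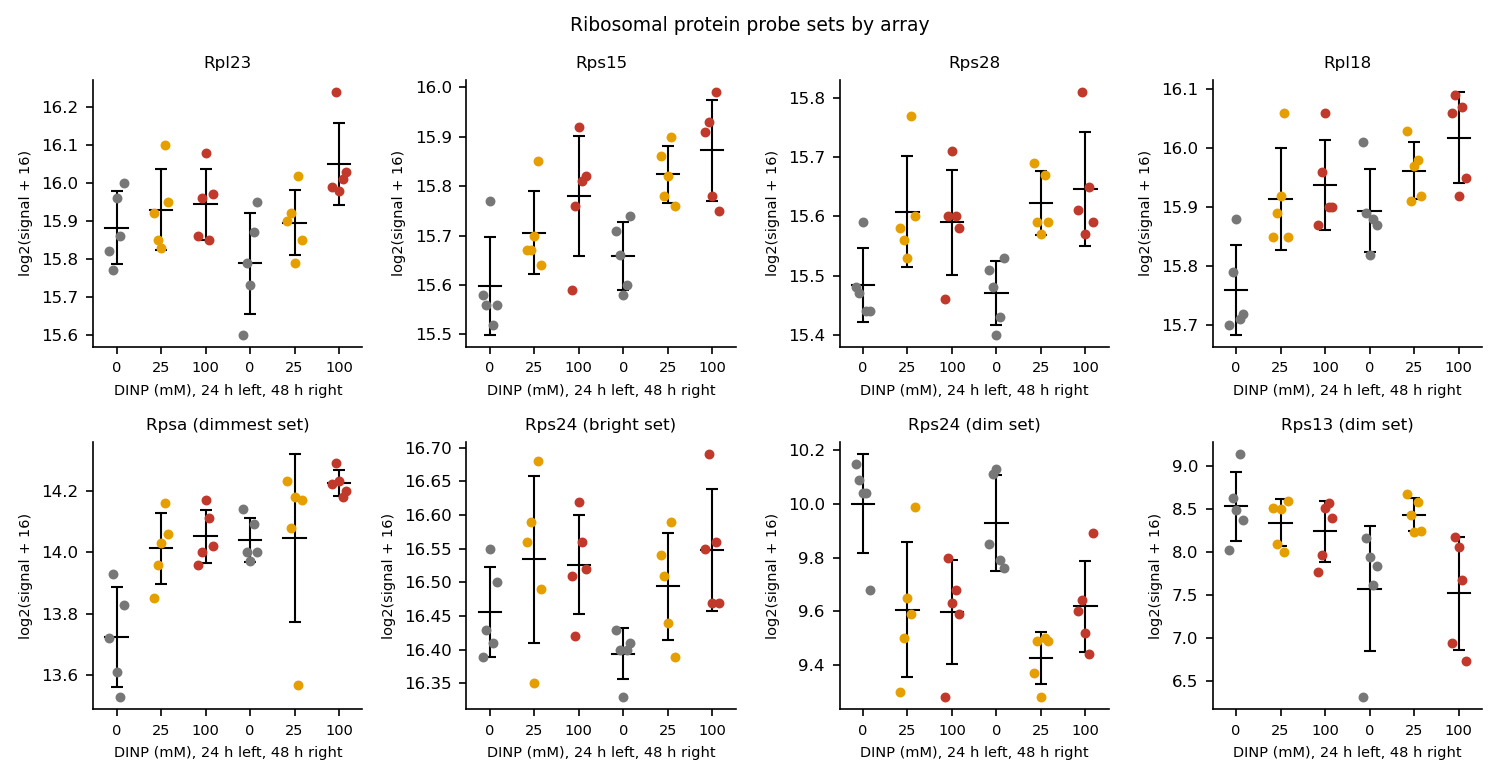
Log2(signal + 16) of 8 ribosomal protein probe sets on each of the 30 arrays, with dose in mM along the axis and 24 h on the left, 48 h on the right of each panel. Points are arrays, lines and bars the mean and SD of 5; at 48 h Rpl23, Rps15 and Rps28 are higher at 100 mM than in the vehicle, and the dim Rps24 set is lower at 25 mM while the bright one is not.

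Under the deposited scaling, a list of 9 members, most with known roles outside the ribosome, had no call in any dose comparison. Each was read by its brightest probe set. Over all tested probe sets, 5.55% to 7.41% were called higher and 6.74% to 10.5% lower, so 0 calls among 9 does not set the list apart from the array. The 9 were Rplp0, often used as a reference gene, Rps6, the target of S6 kinase, Rpl5 and Rpl11, which carry 5S rRNA and bind Mdm2 when assembly fails, Rpl13a, Rpl22, Rpl3, Rpsa and Rps27l, a paralog of Rps27 induced by p53. Rpl3, Rpl5 and Rpl22 were called lower at 25 mM and 48 h under quantile normalisation. The dimmest Rpsa probe set was called higher at 24 h under the deposited scaling, as given above. The list did not hold every such member: Rpl23, which also binds Mdm2, and Rpl26, which binds the p53 mRNA, were called at 100 mM and 48 h as given above. Under the deposited scaling, the differences of the 9 listed members ran from -0.10 to 0.12 at 25 mM and -0.11 to 0.14 at 100 mM at 24 h. At 48 h they ran from -0.06 to 0.09 and -0.09 to 0.13.

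The values at 100 mM and 48 h were 0.07 ± 0.07 for Rplp0, 0.12 ± 0.05 for Rps6, 0.10 ± 0.05 for Rpl5 and 0.13 ± 0.05 for Rpl11. They were 0.07 ± 0.06 for Rpl13a, 0.09 ± 0.05 for Rpl22, 0.08 ± 0.05 for Rpl3, 0.13 ± 0.05 for Rpsa and -0.09 ± 0.10 for Rps27l. The smallest limma adjusted p among them was 0.072, for Rpl11. Leaving out 1 array made some of them called higher. This held for Rps6 without treated replicate 3 or vehicle replicate 5 (limma adjusted p down to 0.0334). It also held for Rpl11 without replicate 5 of either group (down to 0.043) and for Rpsa without treated replicate 3 (0.0331). Rplp0 read 16.57, 16.50, 16.15, 16.33 and 16.47 in the vehicle and 16.57, 16.55, 16.26, 16.50 and 16.48 at 100 mM. These groups overlapped throughout, and the 95% interval of the difference, -0.07 to 0.21, leaves room for a rise of the size called for Rps15.

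No member was called between the doses or between the times of an effect. Between 100 and 25 mM, 0 of 48 members were called at 24 h, where 0.0107% of all tested probe sets were, and 0 at 48 h, where 0.00537% were. At an unadjusted limma p under 0.05 the numbers were 0 and 7, where 4.1% and 7.53% of all tested probe sets passed. The smallest was that of Rps13 at 48 h, with -0.92 ± 0.30 (limma adjusted p = 0.50). For the change of the effect between 24 and 48 h, 0 members were called at 25 mM (0.242% of all) and 0 at 100 mM (0.0644% of all), and 2 and 1 had an unadjusted limma p under 0.05, as did 8.2% and 6.26% of all. Over the bright members, the 95% intervals of the difference between the doses reached from 0.899 to 1.25 times over both times, so differences between the doses of up to that size lie within the error.

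Between 24 and 48 h in the vehicle, the median member difference was -0.001, and 2 members (4.17%) were called higher and 1 (2.08%) lower, against 6.67% and 7.68% of all tested probe sets. The higher ones were probe sets of Rpsa. The dimmest read 13.53 to 13.93 at 24 h and 13.97 to 14.14 at 48 h, without overlap, a difference of 0.32 ± 0.09 (limma adjusted p = 0.0105) that stayed called without any single array (at most 0.0454). The brightest gave 0.15 ± 0.05 (limma adjusted p = 0.0403), a call lost without any 1 array other than replicate 3 of either time (up to 0.101). Rps13 fell by 0.96 ± 0.30 (limma adjusted p = 0.0285), from 8.03 to 9.14 at 24 h to the 48 h readings above, a call lost without 48 h replicate 1 or 24 h replicate 2 or 4 (up to 0.138). Under quantile normalisation 3 members were higher and 2 lower, against 7.48% and 8.02%, with Rpl18 (0.13, limma adjusted p = 0.00973) and the bright Rps24 set (-0.09, limma adjusted p = 0.031) added. Time in culture and time in the vehicle passed together.

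The rest of the translation machinery was read from lists of its other genes. The list of ribosome assembly factors and RNA polymerase I listed 64 genes, 63 of them tested through 82 probe sets. At 24 h 0 of these probe sets were called higher and 7 lower at 25 mM, and 1 and 6 at 100 mM, where 7.49% and 6.74% of all tested probe sets were called lower. At 48 h 1 was higher and 24 lower at 25 mM, and 1 and 18 at 100 mM, where 10.5% and 8.07% of all were called lower. The medians were -0.081, -0.098, -0.145 and -0.111, beside -0.046, -0.053, -0.034 and -0.074 over all tested probe sets. Under quantile normalisation the counts of lower calls were 7, 5, 18 and 10 and the medians -0.034, -0.039, -0.112 and -0.066, so the sign of the median held. Of all tested probe sets, 6.61%, 5.64%, 9.41% and 6.34% were called lower under that scaling. Under median centring the assembly list's lower calls, of 82 probe sets, were 2 and 1 at 24 h and 4 at 100 mM and 48 h (25 mM and 48 h not given here). Over all 18625 tested probe sets these were 690, 540 and 569.

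Among the assembly genes, Nop58, a core protein of box C/D small nucleolar particles, read 12.30 to 12.80 in the vehicle at 48 h and 11.89 to 12.24 at 25 mM, without overlap. It fell by 0.48 ± 0.08 there (limma adjusted p = 5.93e-05) and by 0.33 ± 0.08 at 25 mM and 24 h (limma adjusted p = 0.00661). Its partner Nop56 fell by 0.65 ± 0.17 at 100 mM and 48 h (limma adjusted p = 0.0057), from 9.70 to 10.64 in the vehicle to 9.02 to 9.66. At 24 h Tsr1, which acts on the pre-small subunit in the cytoplasm, fell by 0.39 ± 0.09 at 25 mM (limma adjusted p = 0.00183) and by 0.42 ± 0.09 at 100 mM (limma adjusted p = 0.00107). Nmd3, the export adaptor of the large subunit, fell by 0.38 ± 0.07 at 25 mM and 24 h (limma adjusted p = 3.19e-04). Wdr36, a small-subunit processome protein, fell by 0.49 ± 0.08 at 25 mM and 48 h (limma adjusted p = 4.47e-05), and Rrs1, a large-subunit assembly factor, by 0.59 ± 0.14 at 100 mM and 48 h (limma adjusted p = 0.00258).

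The list of regulators of ribosomal protein mRNA translation and its upstream pathway had 28 tested probe sets, of which 0 were called higher in any dose comparison and 3, 1, 7 and 4 lower, beside 7.49%, 6.74%, 10.5% and 8.07% of all tested probe sets. Myc, a transcription factor that drives ribosome production, was lower in all 4. It read 11.75 to 12.06 in the vehicle at 24 h, and at 48 h 12.06 to 12.40. It read 11.08 to 11.46 at 25 mM and 11.18 to 11.75 at 100 mM after 24 h, and 11.33 to 11.66 and 11.37 to 11.83 after 48 h. At 48 h the treated arrays did not reach the vehicle range. Myc fell by 0.62 ± 0.10 and 0.52 ± 0.10 at 24 h and by 0.66 ± 0.10 and 0.71 ± 0.10 at 48 h (limma adjusted p at most 4.85e-04), and was called under quantile normalisation each time (limma adjusted p at most 7.49e-04). A Larp1 probe set, for the protein that binds the TOP motif, was lower at 100 mM and 48 h, by 0.27 ± 0.08 (limma adjusted p = 0.0152), with arrays of 12.38 to 12.51 against 12.62 to 12.81.

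**Figure D5:**
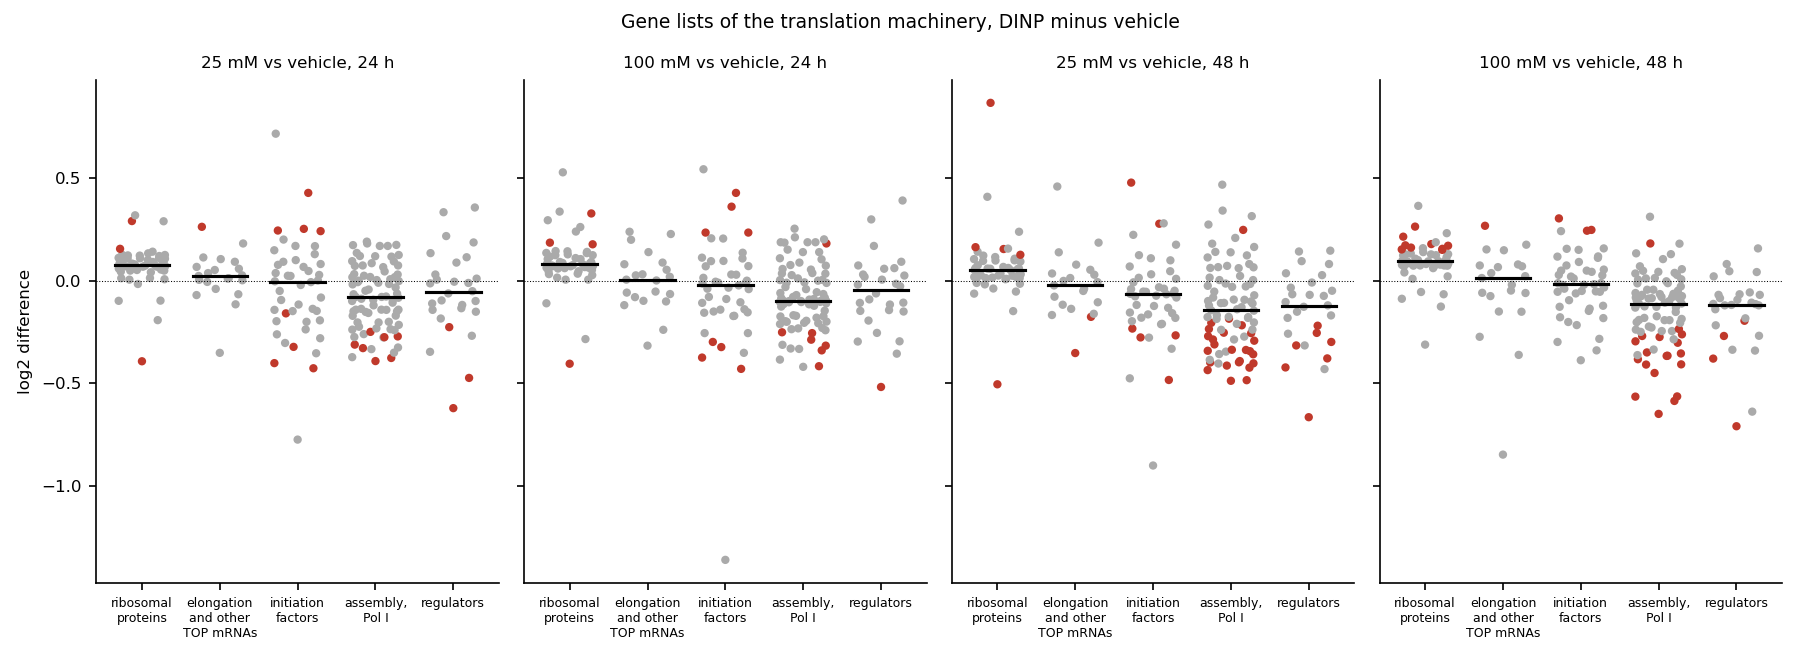
Log2 difference of DINP minus vehicle for each tested probe set of the 48 ribosomal protein probe sets and of 4 other lists of the translation machinery, in the 4 dose comparisons. Red points passed the threshold, grey points did not, and black lines are list medians; the ribosomal proteins cluster just above 0, and most called points of the assembly list lie below 0, and more of them at 48 than at 24 h.

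Elongation factors and other TOP mRNAs outside the ribosome held 21 tested probe sets of 12 genes, with 1, 0, 0 and 1 called higher and 0, 0, 2 and 0 lower. Of all tested probe sets, 5.85%, 5.55%, 7.41% and 6.49% were higher and 7.49%, 6.74%, 10.5% and 8.07% lower. Under quantile normalisation 0 of the 21 were higher in any dose comparison and 1, 2, 5 and 2 lower. Of all tested probe sets, 6.3%, 5.87%, 8.13% and 6.78% were then higher and 6.61%, 5.64%, 9.41% and 6.34% lower. Eef1b2, an exchange factor of elongation factor 1, was the one called higher under the deposited scaling. It rose by 0.26 ± 0.08 at 25 mM and 24 h (limma adjusted p = 0.0203) and by 0.27 ± 0.08 at 100 mM and 48 h (limma adjusted p = 0.0169). Neither call was made under quantile normalisation (limma adjusted p = 0.0548 and 0.0793). The probe sets called lower under the deposited scaling, both of Hnrnpa1, gave -0.35 ± 0.11 and -0.18 ± 0.06 at 25 mM and 48 h (limma adjusted p = 0.0255 and 0.0222). Of 45 initiation factor probe sets, 4, 4, 2 and 3 were higher and 4, 4, 4 and 0 lower, beside 5.85%, 5.55%, 7.41% and 6.49% higher and 7.49%, 6.74%, 10.5% and 8.07% lower over all tested probe sets. Eif2b2, a subunit of the exchange factor of eIF2, was higher in all 4 dose comparisons, by 0.30 ± 0.10 to 0.48 ± 0.10 (limma adjusted p at most 0.0387). Eif4e, the cap-binding protein, was higher at 100 mM and 48 h, by 0.24 ± 0.05 (limma adjusted p = 2.75e-04), with arrays of 14.44 to 14.61 against 14.21 to 14.34. Others fell. At 24 h 2 Eif5b probe sets were lower, at -0.43 and -0.40 at 25 mM and -0.43 and -0.37 at 100 mM (limma adjusted p at most 0.0412). The second set was not called under quantile normalisation (limma adjusted p = 0.0558 and 0.0889). An Eif4a2 probe set was lower at 25 mM and 48 h, at -0.48 ± 0.13 (limma adjusted p = 0.00608).

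The 5S rRNA control probe set of the array was higher under DINP. 5S rRNA is the ribosomal RNA that Rpl5 and Rpl11 bring into the large subunit. At 24 h it read 9.81 to 10.39 in the vehicle, 10.64 to 11.60 at 25 mM and 10.86 to 11.54 at 100 mM, and at 48 h 9.56 to 9.98, 10.60 to 11.01 and 10.07 to 10.93. No treated array reached down to the vehicle range. The differences were 1.03 and 1.03 at 24 h and 1.11 and 0.89 at 48 h, each with an exact two-sided permutation p of 0.0079, the smallest that 5 against 5 arrays can give, and 0.032 after Benjamini-Hochberg adjustment over 20 control comparisons. 5S rRNA has no poly-A tail, so how this probe set's signal relates to the amount of 5S rRNA in the cell cannot be read from these arrays.

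Other control probe sets bear on how RNA amount and quality differed. The poly-A spikes, foreign transcripts that can be added to RNA before labelling, were higher by 0.30 at 25 mM and 48 h (exact permutation adjusted p = 0.032) and differed by 0.03, 0.19 and 0.24 in the other dose comparisons (exact permutation adjusted p = 0.81, 0.079 and 0.099). The hybridisation spikes differed by at most 0.08 in either direction (exact permutation adjusted p at least 0.32). The 3′ minus 5′ difference of Gapdh and beta-actin, a sign of RNA integrity, moved by at most 0.05 (exact permutation adjusted p at least 0.091). The part of these shifts in the ribosomal protein values was not tested.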

How the data were processed

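The deposited intensities, 1 linear MAS5 signal intensity per probe set and array on an Affymetrix rat array (per the submitters' processing notes, version not given in the sources used here), were scaled to one mean per array by the authors, with 2% trimmed means of 1500.65 to 1500.76. Detection calls were not used here, and no build applies to the values. From them log2(signal + 16) was computed, 57 control probe sets were set aside, and probe sets at or above the 40th percentile of mean log2 were tested in 1 limma 3.58.1 fit (R 4.3.3) of all 6 groups, with 24 residual degrees of freedom, a variance trend and Benjamini-Hochberg adjustment within each comparison, and tested on simulated data. Control probe sets were compared by exact permutation (scipy 1.17.1). A log2 difference understates changes of dim probe sets. The number of arrays, 5 per group, limits the precision.

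Symbols came from the platform annotation, and 20758 of 20826 probe sets with 1 symbol had an ID in the GRCr8 gene table, which updated the symbols of the other lists. Probes of ribosomal protein genes can bind processed pseudogenes, so each value is that of a probe set. Named were up to 5 called rises and 5 called falls per comparison, a fixed list of members (most with roles outside the ribosome), paralogs, members that went against the rest and up to 3 called genes per other list. The members, lists and tests were chosen with earlier results of these data known. Replicates were numbered in accession order. Array numbers in the labels form 5 rounds with 1 array of each group; arrays of a round did not deviate together (mean correlation 0.012 over 75 pairs, against -0.003 over 300 others). Alternatives were quantile normalisation, median centring, constants of 1 and 64, no filter, the 60th percentile, no trend, only the compared groups, array weights, the round as a block and leaving out each array. Array scaling on 424 bright probe sets or on the members was chosen after seeing the data.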

Additional observations from a re-analysis of the deposited data

Results flagged for a closer look

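Among 22 named ribosomal protein probe sets in 6 groups, 9 of 132 groups of 5 arrays had 1 array far from the others by Dixon's criterion (critical value 0.71), and chance alone gives about 1 in 20. Rps15 was high on replicate 3 of the vehicle at 24 h (15.77, the others 15.52 to 15.58) and on replicate 4 of 25 mM at 24 h (15.85, the others 15.64 to 15.70). Rps28 was high on the same vehicle array (15.59, the others 15.44 to 15.48). Rpl23 was high on replicate 2 of 100 mM at 48 h (16.24, the others 15.98 to 16.03) and Rpl19 on replicate 3 of 100 mM at 24 h (16.50, the others 16.38 to 16.41). The brightest Rpsa probe set was low on replicate 3 of the vehicle at 48 h (15.80, the others 15.94 to 15.99) and the dimmest on replicate 4 of 25 mM at 48 h (13.57, the others 14.08 to 14.23). Rplp0 was low on replicate 5 of 25 mM at 48 h (16.35, the others 16.47 to 16.49), and the dim Rps24 set on replicate 5 of the vehicle at 24 h (9.68, the others 10.04 to 10.15).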

How the results depend on the processing

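The counts of called members depended on the scaling and on single arrays; constants of 1 and 64 and the round as a replicate block left every count of members within 1.5 times the reported one. In the order 25 mM and 100 mM at 24 h, then 25 mM and 100 mM at 48 h, quantile normalisation gave 0, 2, 1 and 0 higher and 0, 0, 6 and 0 lower, and 3 and 2 between the times in the vehicle. Over all 18625 tested probe sets it called 1174, 1093, 1514 and 1262 higher and 1232, 1050, 1752 and 1180 lower. Between the times it called 1393 higher and 1494 lower. Median centring gave 2, 4, 1 and 17 higher and 0, 0, 1 and 0 lower, and 1 and 1 between the times. Over all tested probe sets it called 1292, 1308, 1109 and 1714 higher and 690, 540, 1620 and 569 lower. Between the times these were 960 and 1068. Scaling on bright probe sets, chosen after seeing the data, gave 0, 0, 0 and 1 higher and 2, 1, 6 and 1 lower, and 3 higher and 3 lower between the times. Over all tested probe sets it called 644, 558, 837 and 674 higher and 2667, 2682, 3298 and 3872 lower. Between the times these were 849 and 1510. No filter gave 1 higher and 0 lower at 25 mM and 24 h, 0 higher at 25 mM and 48 h, and 1 higher between the times. Over its 31042 probe sets these were 984 higher and 1189 lower, 1261 higher, and 1060 higher. Without the trend 1, 1 and 5 were higher at 25 mM and 24 h, 25 mM and 48 h, and 100 mM and 48 h, and with only the compared groups 1, 2 and 4, with 0 lower in the first; both gave 1 higher between the times, the latter and the 60th percentile filter 0 lower. Over all tested probe sets, 983, 1278 and 1098 were higher in the 3 dose comparisons without the trend. With only the compared groups these were 1013, 1024 and 993. Array weights gave 7 members higher at 100 mM and 24 h, beside 1257 over all tested probe sets.

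Leaving out 1 array gave 0 to 3, 1 to 4, 0 to 5 and 3 to 13 higher and 0 to 1, 0 to 1, 1 to 1 and 0 to 1 lower, and 1 to 4 and 0 to 1 between the times. For 100 mM and 48 h the extremes were 3 without treated replicate 2 or vehicle replicate 3 and 13 without treated replicate 3. Over all 18625 tested probe sets 1085, 1082 and 1130 were higher there. The member medians then ran from 0.047 to 0.1, 0.057 to 0.106, 0.029 to 0.062 and 0.064 to 0.131. Medians moved to 0.009, 0.017, -0.029 and -0.004 under quantile normalisation, to 0.15, 0.17 and 0.20 under median centring (both doses at 24 h, 100 mM at 48 h), with 0.16 between the doses at 48 h and -0.11 for 25 mM between the times, and to -0.022, -0.024, -0.041 and -0.029 when scaled on bright probe sets.

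At 100 mM and 48 h the sign turned under quantile normalisation for Rplp0 (-0.051), Rpl13a (-0.062), Rpl22 (-0.024), Rpl3 (-0.033) and Rpsa (-0.003). It turned when scaled on bright probe sets for Rplp0 (-0.057), Rpl13a (-0.058), Rpl22 (-0.041), Rpl3 (-0.048), Rpl5 (-0.026) and Rps6 (-0.002), and when scaled on the members for Rplp0 (-0.037), Rpl13a (-0.038), Rpl22 (-0.022), Rpl3 (-0.029) and Rpl5 (-0.007); that scaling centres the members near 0, so such turns follow from its construction. It turned under median centring for Rps27l (0.017), and where the probe sets of a gene were taken by their median for Rpl3 (-0.024) and Rps24 (-0.078). The assembly list's lower calls were 2, 1 and 4 (24 h and 100 mM at 48 h) under median centring, 16, 14 and 32 when scaled on bright probe sets, and at 100 mM and 48 h 10 under quantile normalisation and 11 with only the compared groups. Over all 18625 tested probe sets these were 690, 540 and 569, then 2667, 2682 and 3872, then 1180 and 1150. Without 1 array the assembly list's lower calls ran from 5 to 7, 3 to 6, 20 to 24 and 11 to 17. Whether bright probe sets neared the scanner's limit was not tested, nor were the causes of these shifts.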
